A study of Mus musculus with 8 samples.

Results

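The nuclear genes for mitochondrial ribosomal proteins were read in RNA from mouse lymphoma cells of the spleen. They were taken as all loci with a gene symbol that begins with Mrpl or Mrps and a digit, 1 locus per symbol (that of the highest mean), if their mean level reached 1 FPKM across the 8 libraries. FPKM counts fragments per kilobase of transcript, relative to the depth of sequencing. This gave 77 genes of the 25477 loci in the table, 48 Mrpl genes (large subunit by symbol) and 29 Mrps genes (small subunit by symbol). Every symbol matched reached the limit, so none was left out by it. The lowest means were 3.36 FPKM for Mrps27 and 3.59 FPKM for Mrpl17, both above the limit, and no gene of the set was at 0 in any library.

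The cells were splenic lymphocytes positive for green fluorescent protein (GFP) and for B220, which marks B cells, and the labels call them lymphoma cells. Libraries scramble 1 to 4 came from cells with a scramble short hairpin RNA (shRNA), the control, whose names begin with AO227. Libraries shCrebbp 1 to 4 came from cells with an shRNA against Crebbp, the gene of a transcriptional coactivator that acetylates histones. The names of shCrebbp 1 and 2 begin with AO228 and those of shCrebbp 3 and 4 with AO229, and what the prefixes mean is not explained. Neither the strain, age and treatment of the mice, the lymphoma model nor the vector is given in the sources used here. Whether each library is from a separate mouse is not given either, so p-values reflect only how these libraries vary, which may be technical.

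Mitochondrial ribosomes translate the few proteins encoded by mitochondrial DNA, all of them subunits of the respiratory chain and ATP synthase. Their ribosomal RNAs are made in the mitochondrion, whereas all their proteins are encoded in the nucleus, made in the cytosol and imported. The large subunit joins amino acids and the small subunit decodes the messenger RNA. Some of the proteins have bacterial relatives and others are found only in mitochondria. Symbols do not always give the subunit: the products of Mrps18a and Mrps30 sit in the large subunit of the mammalian ribosome, and that of Mrps36 is now known as a subunit of the 2-oxoglutarate dehydrogenase complex. Transcription of nuclear genes for mitochondria is known to involve NRF1, the ETS family factor GABP (subunit Gabpa) and YY1.

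Promoter sequence was available for 68 of the 77 genes, as windows from 250 bases before to 50 bases after the annotated start (RefSeq, GRCm38.p6). In all, 8 stretches of 150 bases that end at the base before the start are printed here, 5′ to 3′ on the strand of the gene. Mrpl28, Mrps23 and Mrps24 are shown because they are the only genes of the set whose 4 shCrebbp values all lay above the 4 scramble values. Mrpl27 and Mrpl53 are among the genes with the smallest p and show the ETS motif. Mrpl14, Mrpl42, Mrpl48 and Mrpl50, also of small p, held no ETS match in their windows and are not printed. Mrpl32, Mrpl22 and Mrps11 show the NRF1 and YY1 motifs. Capitals mark matches, on either strand, to an ETS motif (CCGGAAG), the NRF1 site (GCATGCGC) or a YY1 motif (AAGATGGCG). The stretches are Mrpl28 at chr17:26123353-26123502 (plus strand), Mrps23 at chr11:88204238-88204387 (plus strand), Mrps24 at chr11:5707702-5707851 (minus strand), Mrpl27 at chr11:94653641-94653790 (plus strand), Mrpl53 at chr6:83108958-83109107 (plus strand), Mrpl32 at chr13:14613038-14613187 (minus strand), Mrpl22 at chr11:58171514-58171663 (plus strand) and Mrps11 at chr7:78782981-78783130 (plus strand).
Mrpl28: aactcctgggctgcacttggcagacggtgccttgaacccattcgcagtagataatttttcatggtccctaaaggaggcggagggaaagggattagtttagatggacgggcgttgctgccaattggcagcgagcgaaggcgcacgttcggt
Mrps23: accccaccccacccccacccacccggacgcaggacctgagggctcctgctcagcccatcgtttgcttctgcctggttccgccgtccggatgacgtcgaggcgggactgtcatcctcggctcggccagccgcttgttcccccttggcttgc
Mrps24: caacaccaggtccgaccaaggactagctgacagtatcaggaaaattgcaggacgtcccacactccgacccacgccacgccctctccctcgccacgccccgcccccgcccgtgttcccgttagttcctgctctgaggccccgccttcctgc
Mrpl27: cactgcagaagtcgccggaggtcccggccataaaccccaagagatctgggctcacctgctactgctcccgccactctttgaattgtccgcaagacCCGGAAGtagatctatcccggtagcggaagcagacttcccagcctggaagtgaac
Mrpl53: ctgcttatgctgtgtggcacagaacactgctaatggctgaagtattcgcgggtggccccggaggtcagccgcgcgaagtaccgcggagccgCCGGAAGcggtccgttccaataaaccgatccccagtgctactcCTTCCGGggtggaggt
Mrpl32: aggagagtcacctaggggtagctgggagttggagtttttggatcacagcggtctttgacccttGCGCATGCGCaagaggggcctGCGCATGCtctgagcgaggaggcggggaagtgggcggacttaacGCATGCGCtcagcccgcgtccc
Mrpl22: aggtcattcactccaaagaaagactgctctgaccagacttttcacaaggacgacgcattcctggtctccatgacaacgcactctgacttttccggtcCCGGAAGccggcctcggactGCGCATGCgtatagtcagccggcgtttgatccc
Mrps11: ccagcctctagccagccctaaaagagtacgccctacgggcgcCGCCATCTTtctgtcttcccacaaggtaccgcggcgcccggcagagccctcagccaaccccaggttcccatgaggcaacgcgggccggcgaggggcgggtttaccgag

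The printed stretches of Mrpl28, Mrps23 and Mrps24 held none of these letters, but outside the printed stretch the whole window of Mrps23 held 1 ETS match and that of Mrps24 held 1 YY1 match. In Mrpl53 the ETS letters stood at -59 and, on the other strand, at -16, counted from the start. Mrpl32 held 4 overlapping or separate matches to the NRF1 motif, the first pair of them forming a palindrome. Over the whole windows, the ETS letters were present in 35.3% of the 68 promoters, against 20.6% of the promoters of 8138 loci tested and 9.12% of all 27025 promoters in the table. The NRF1 letters were in 11.8%, against 6.12% and 2.80%, and the YY1 letters in 11.8%, against 3.66% and 1.49%. Motifs less tied to mitochondria were searched in the same way. The cyclic AMP response element TGACGTCA, a site of CREB, the factor Crebbp was named for, was in 2.94% of the promoters, against 3.59% and 1.88%. The E-box CACGTG was in 7.35%, against 10.9% and 7.24%. All 6 searches read both strands, palindromes count once, and the palindrome of the NRF1 motif (4.41%, against 2.36% and 0.977%) overlaps that motif. A match is a run of letters and does not show that a factor is bound.

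Crebbp itself, the targeted gene, was at 33.7, 22.9, 21.3 and 25.8 FPKM in scramble 1 to 4 and at 18.9, 26.6, 23.4 and 19.3 FPKM in shCrebbp 1 to 4. The groups overlapped, and the difference on the log2(FPKM + 1) scale, shCrebbp minus scramble, was -0.22 (SE 0.18, 95% interval -0.62 to 0.19, limma adjusted p = 0.915). The labels alone say which libraries carried the shRNA. B cell markers were all detected, at a summed level of 2600 to 3101 FPKM in scramble and 2753 to 3431 FPKM in shCrebbp libraries. Of the 8, 5 had a positive and 3 a negative difference. Cd79b lay wholly higher in shCrebbp (0.30) and Blnk wholly lower (-0.42), each with a limma adjusted p of 0.915 (background 1.58% and 1.74% of all loci tested). T cell markers (4 of 8 at a mean of at least 1 FPKM) summed to 22.5 to 45.3 and 22.5 to 35.3 FPKM, and neutrophil markers (1 of 7) to 0.731 to 4.44 and 0 to 4.19 FPKM. Erythroid markers (5 of 8 symbols, at 3 loci) summed by symbol to 4.23 to 45.8 and 19.7 to 55.4 FPKM. The locus shared by Hbb-b1 and Hbb-bs and that shared by Hba-a1 and Hba-a2 count for each symbol, so the erythroid sums overstate the level. Macrophage markers (5 of 10) summed to 318 to 448.5 and 235 to 381 FPKM, most of it from the locus of Cd68 merged with Eif4a1 and Senp3. Of the 5 macrophage markers tested, 4 had a negative difference, and limma called 0 of them. Ly6c2, a monocyte marker, lay lower in every shCrebbp library, at 12.4, 13.5, 20 and 26.3 FPKM in scramble and 8.59, 5.12, 8.56 and 4.16 FPKM in shCrebbp, a difference of -1.32 (limma adjusted p = 0.811). The others were Emr1 (-1.23), Mpeg1 (-0.61), Cd68 (-0.38) and Lyz2 (0.45), and Csf1r, C1qa, C1qb, Cd14 and Itgam were under the limit of 1 FPKM. Of the 4 T cell markers tested, Lck was at 34.6, 36.7, 31.9 and 18.02 FPKM in scramble and 20.8, 16.2, 14.8 and 14.8 FPKM in shCrebbp libraries, a difference of -0.79 (limma adjusted p = 0.915), and 3 were above 0. The part of these markers in the results was not tested. Loci at 0, fewer in deeper libraries, made up 33.2 to 51.8% of all loci, and no counts were given, so absolute depth is unknown.

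No gene for a mitochondrial ribosomal protein passed the test between shCrebbp and scramble. The set leaned to slightly higher values in shCrebbp: 36 of the 48 Mrpl genes (75%) and 17 of the 29 Mrps genes (58.6%) had a difference above 0, against 52% of the 11417 loci tested. The median difference was 0.12 for Mrpl and 0.09 for Mrps genes on the log2(FPKM + 1) scale, against 0.01 over all loci tested. The share above 0 over all loci was larger among short transcripts, 61.3% under 1000 bases against 50.1% over 2000 bases. Shares of the set by length are given below. With each library left out in turn, the Mrpl lean was weakest without shCrebbp 1 (28 of 48 higher, median 0.07). The Mrps lean was weakest without scramble 1 (14 of 29 higher, median -0.0099). Little of either was left in the pair whose names begin with AO229.

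limma with Benjamini-Hochberg adjustment called 0 of the 77 genes at an adjusted p under 0.05, and 0% of all loci tested. The smallest adjusted p in the set was 0.915. At an unadjusted p under 0.05, 6 genes were higher (7.79%, against 2.08% of all loci tested) and 1 was lower (1.3%, against 2.93%). The 6 were 4 Mrpl and 2 Mrps genes, and include Mrpl14, whose second locus went the other way (below). With each library left out in turn, 2 to 5 Mrpl and 1 to 2 Mrps genes were higher at that limit. The shCrebbp values lay wholly above the scramble values in 3 genes (3.9%, against 1.58%) and wholly below them in 0 genes (against 1.74%). A difference beyond 0.5 in either direction was seen in 10 of 77 genes (13%), 9 of them Mrpl genes, against 13.2% of all loci tested. The 95% interval lay within -1 and 1 in 64 of the 77 genes, and a 2-fold difference either way was thus outside it on this scale. In bulk RNA, fewer cells of a type and less RNA per cell cannot be told apart.

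**Figure D1:**
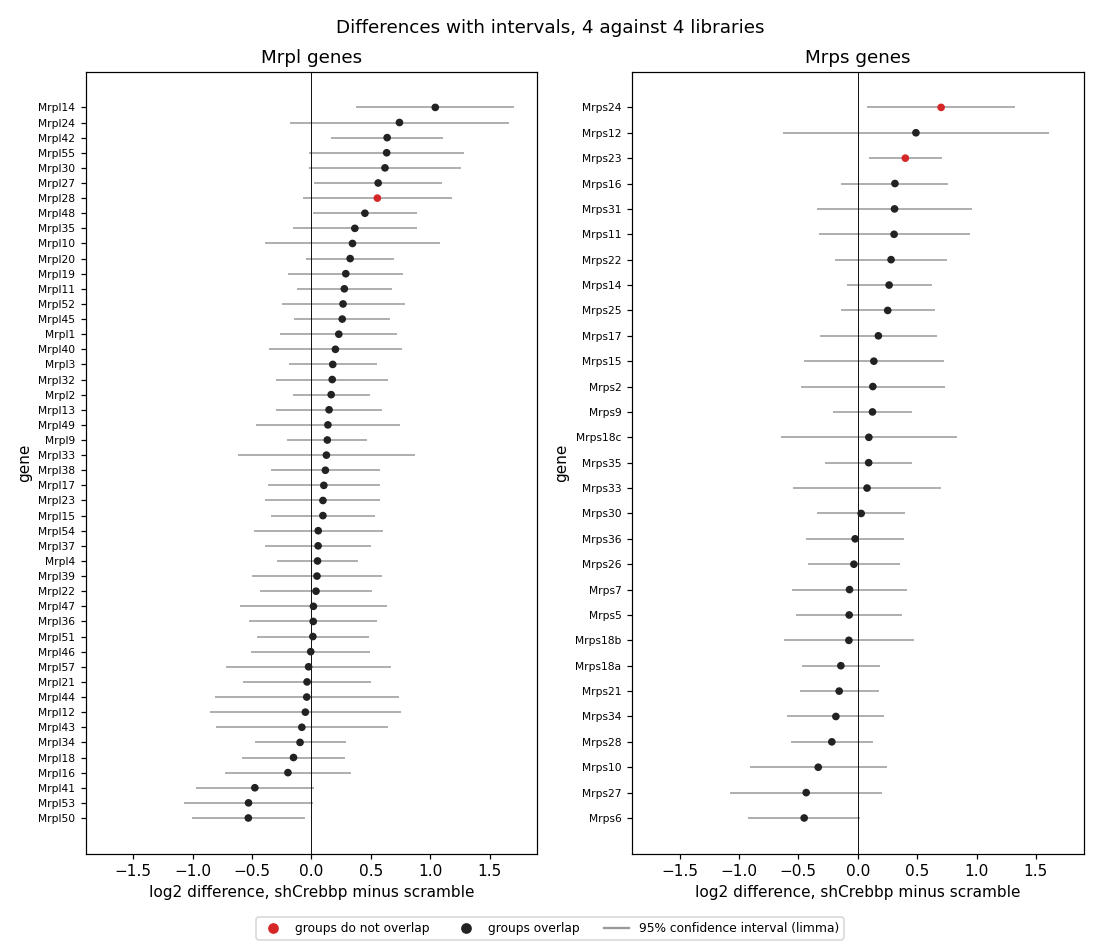
The log2(FPKM + 1) difference, shCrebbp minus scramble, of each of the 48 Mrpl and 29 Mrps genes, with its 95% interval from limma (4 against 4 libraries). Most points lie right of 0 among Mrpl genes, nearly all intervals include 0, and red marks the 3 genes whose groups do not overlap (Mrpl28, Mrps23 and Mrps24).

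The summed level of the 48 Mrpl genes was 785, 872, 930 and 855 FPKM in scramble 1 to 4 and 1235, 911, 860 and 921 FPKM in shCrebbp 1 to 4. The library shCrebbp 1 stood above the rest, and the other 3 shCrebbp libraries lay inside the scramble range. The group means were 860 ± 59.4 and 982 ± 171 FPKM (SD, n = 4 each), and shCrebbp 2 to 4 alone gave 897 ± 32.6 FPKM (SD, n = 3). For the 29 Mrps genes the sums were 516, 585, 550 and 517 FPKM in scramble and 656, 538.5, 525 and 533 FPKM in shCrebbp libraries, again with shCrebbp 1 highest. Means were 542 ± 32.4 and 563 ± 62.2 FPKM (SD, n = 4 each), and shCrebbp 2 to 4 gave 532 ± 6.98 FPKM (SD, n = 3). The top 3 genes held 21.0% of the Mrpl sum and 26.8% of the Mrps sum. The ratio of the Mrpl to the Mrps sum was 1.52, 1.49, 1.69 and 1.65 in scramble and 1.88, 1.69, 1.64 and 1.73 in shCrebbp libraries, so the groups overlapped in it too.

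Gene by gene, shCrebbp 1 held the highest of the 8 values in 36 of the 77 genes (24 Mrpl and 12 Mrps, 46.8%), whereas it did so in 20.2% of all loci tested. In that library 26 of the 48 Mrpl genes lay above all 4 scramble values, and in shCrebbp 2, 3 and 4 the numbers were 11, 10 and 12. Its median deviation from the scramble mean was 0.52 for Mrpl and 0.21 for Mrps genes on the log2(FPKM + 1) scale. In shCrebbp 2, 3 and 4 the medians were 0.11, 0.03 and 0.02 for Mrpl and 0.07, 0.01 and 0.01 for Mrps genes. The scramble libraries lay between -0.07 and 0.09 for Mrpl and between -0.06 and 0.17 for Mrps genes, and over all loci tested every library lay between -0.02 and 0.02. Without shCrebbp 1, 28 of 48 Mrpl and 16 of 29 Mrps genes were higher, with medians of 0.07 and 0.01. Scramble 2, the library with the most loci at 0, held the highest value in 18 and the lowest in 20 of the 77 genes.

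**Figure D2:**
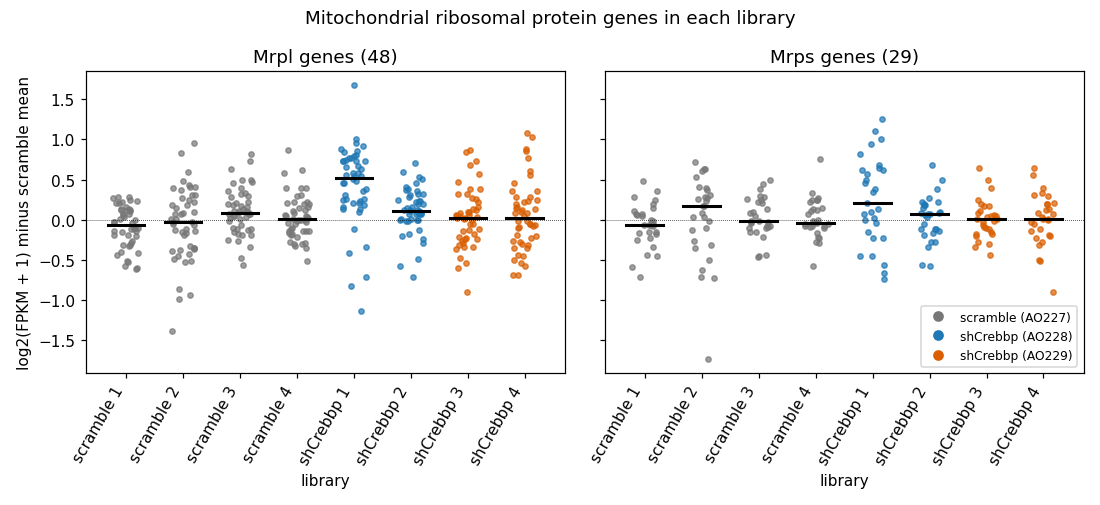
Each point is 1 gene in 1 library, as log2(FPKM + 1) minus the mean of that gene over the scramble libraries, and bars are medians over the genes. The Mrpl genes of shCrebbp 1 centre at 0.52, while those of the other shCrebbp libraries centre between 0.02 and 0.11.

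Transcript length differed between these genes and most others: their median annotated transcript was 1223 bases long (range 440.5 to 6073), against 2655.5 bases over 9720 loci tested with a length. In shCrebbp 1, short transcripts were high over all loci, with a median deviation of 0.28 under 1000 bases, 0.10 from 1000 to 2000 bases and -0.04 over 2000 bases. The genes for mitochondrial ribosomal proteins deviated by 0.50, 0.38 and 0.45 in the same classes. By subunit, the medians were 0.56, 0.31 and 0.56 for Mrpl genes (17, 19 and 12 genes) and -0.0040, 0.57 and 0.35 for Mrps genes (13, 9 and 7 genes), so the shortest Mrps genes did not share the deviation. The part of length in these results was not tested beyond these values. With the trend of each library with length removed, 33 Mrpl and 15 Mrps genes were higher, with medians of 0.10 and 0.04.

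**Figure D3:**
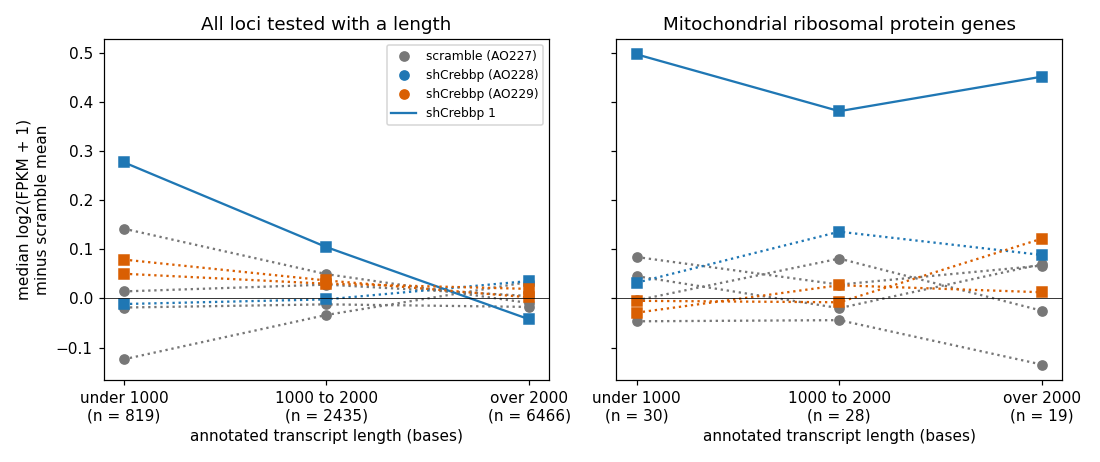
Median deviation of log2(FPKM + 1) from the scramble mean in each library, by class of annotated transcript length, over all loci tested and over the 77 genes. In shCrebbp 1 (solid line) the median over all loci goes from 0.28 in the shortest class to -0.04 in the longest, and that of the 77 genes stays between 0.38 and 0.50.

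Among small subunit genes, Mrps23, whose product is found in mitochondrial but not bacterial ribosomes, was at 15.5, 17.8, 14.8 and 14.8 FPKM in scramble and 24.6, 19.2, 21.0 and 19.7 FPKM in shCrebbp libraries. All 4 shCrebbp values were higher than all 4 scramble values. The difference was 0.40 (SE 0.14, 95% interval 0.09 to 0.71), with a limma adjusted p of 0.915 and an exact permutation p = 0.0286, the smallest that 4 against 4 libraries allow. Every gene whose groups do not overlap gets this permutation p, so it only restates the separation. It is not adjusted for the number of genes. This locus (chr11:88098058-88211575, mm10) is merged with Cuedc1 and 2210416O15Rik, so its value is not of Mrps23 alone. Mrps24, a relative of a bacterial protein at the entry of the messenger RNA, was at 13.0, 6.69, 16.2 and 12.8 FPKM in scramble and 29.2, 16.9, 16.9 and 17.6 FPKM in shCrebbp libraries (chr11:5703983-5707699). Its groups did not overlap either, but the gap was narrow, between 16.2 and 16.9 FPKM. The difference was 0.70 (SE 0.28, 95% interval 0.08 to 1.32, limma adjusted p = 0.915, exact permutation p = 0.0286) and was 0.46 without scramble 2.

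Other Mrps genes of small p had groups that overlapped. Mrps14 was at 6.92, 7.18, 8.08 and 6.94 FPKM in scramble and 11.3, 8.67, 7.57 and 8.51 FPKM in shCrebbp libraries, a difference of 0.26 (SE 0.16) that was 0.16 without shCrebbp 1. Mrps16, one of the most abundant of the set, was at 40.9, 34.1, 49.8 and 47.0 FPKM against 75.5, 48.3, 50.7 and 42.8 FPKM, a difference of 0.31 (SE 0.20) that was 0.15 without shCrebbp 1, which stood far above the rest. Both products have bacterial relatives in the small subunit. On the lower side, Mrps6 (merged with Slc5a3) was at 9.05, 10.8, 5.997 and 9.09 FPKM in scramble and 4.72, 7.81, 6.04 and 5.76 FPKM in shCrebbp libraries, a difference of -0.45 (SE 0.21). Mrps27, which encodes a pentatricopeptide repeat protein that binds RNA, was the least abundant of all, at 3.65, 6.52, 2.51 and 3.52 FPKM against 2.55, 3.49, 3.002 and 1.61 FPKM, a difference of -0.43 (SE 0.28) that was -0.22 without scramble 2 and -0.28 without shCrebbp 4. Each of these 4 genes had an adjusted p of 0.915 by limma.

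The most abundant Mrps genes showed no common direction. Mrps21 was at 60.7, 66.2, 60.5 and 48.0 FPKM in scramble and 49.8, 53.1, 46.1 and 61.5 FPKM in shCrebbp libraries, a difference of -0.16 (SE 0.15) that was -0.10 without scramble 2 or shCrebbp 3 and -0.25 without scramble 4. Mrps28, merged with Tpd52, was at 44.8, 49.7, 49.9 and 44.0 FPKM against 31.4, 49.3, 41.6 and 40.6 FPKM, a difference of -0.22 (SE 0.15) that was -0.10 without shCrebbp 1. In both, most shCrebbp values sat low within or below the scramble range. Mrps12, whose bacterial relative takes part in decoding, had the widest spread within groups: 13.2, 2.05, 13.3 and 16.1 FPKM against 13.3, 15.3, 14.9 and 10.1 FPKM. Its difference of 0.49 (SE 0.50) rests on the low value of scramble 2 and turned to -0.09 without that library, and was 0.74 without scramble 4.

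The 3 paralogs related to bacterial S18 were measured at distinct loci. Mrps18a was at 17.4, 15.3, 15.01 and 20.2 FPKM in scramble and 14.3, 13.7, 16.03 and 16.9 FPKM in shCrebbp libraries, a difference of -0.14 (SE 0.15) that was -0.061 without scramble 4. Mrps18b, merged with Atat1, was at 25.8, 13.2, 26.8 and 27.2 FPKM against 16.2, 23.3, 23.2 and 22.9 FPKM, a difference of -0.08 (SE 0.24). Mrps18c was at 40.3, 56.0, 37.4 and 25.5 FPKM against 74.5, 42.6, 33.1 and 26.6 FPKM, a difference of 0.09 (SE 0.33). The groups overlapped in all 3, and shCrebbp 1 was the highest library for Mrps18c and the second lowest for Mrps18b. Mrps30 and Mrps36 were nearly level, with means of 15.04 ± 3.08 and 15.2 ± 1.64 FPKM and of 12.1 ± 2.48 and 11.8 ± 2.02 FPKM (scramble and shCrebbp, SD, n = 4 each).

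Among large subunit genes, Mrpl28, with a bacterial relative, was the one whose groups did not overlap, at 14.8, 6.03, 16.6 and 15.6 FPKM in scramble and 20.1, 18.4, 19.0 and 17.5 FPKM in shCrebbp libraries (chr17:26123503-26126613). The 4 shCrebbp values lay close together, and scramble 2 was far below the other scramble values. The difference was 0.56 (SE 0.28, 95% interval -0.07 to 1.18, limma adjusted p = 0.915, exact permutation p = 0.0286) and was 0.24 without scramble 2. Mrpl42 was at 16.9, 11.5, 23.7 and 17.2 FPKM against 28.6, 24.2, 23.6 and 31.1 FPKM. Its groups overlapped only by scramble 3 and shCrebbp 3, and the difference was 0.64 (SE 0.21, limma adjusted p = 0.915, exact permutation p = 0.0571). Both prefixes gave a like difference for Mrpl42, 0.62 for AO228 and 0.66 for AO229 against the same scramble libraries.

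Mrpl14 had the largest difference of the set, 1.04 (SE 0.29, limma adjusted p = 0.915, exact permutation p = 0.0571), at 4.12, 3.92, 8.97 and 5.79 FPKM in scramble and 19.6, 8.70, 10.8 and 12.1 FPKM in shCrebbp libraries. A second locus of this name at the same coordinates (chr17:45686372-45698495) stood the other way, at 5.17, 10.1, 1.29 and 3.63 FPKM in scramble and 0, 0.894, 0.429 and 2.48 FPKM in shCrebbp libraries. The sum of both was 9.29, 14.05, 10.26 and 9.42 FPKM in scramble and 19.6, 9.59, 11.2 and 14.6 FPKM in shCrebbp libraries, and the difference of the sum was 0.30. Library by library, the locus with the higher value was not always the same, and which of them the fragments belong to is uncertain. Mrpl38 is the other symbol with a pair of loci at 1 set of coordinates, and its main locus is merged with Fbf1.

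The protein encoded by Mrpl27 has a bacterial relative close to the site of peptide bond formation. The gene was at 10.3, 10.6, 13.1 and 8.42 FPKM in scramble and 22.1, 13.2, 10.8 and 20.2 FPKM in shCrebbp libraries, with 1 library of each prefix above 20 FPKM. The difference was 0.56 (SE 0.24, limma adjusted p = 0.915, exact permutation p = 0.0571). Mrpl48 was at 16.8, 22.4, 19.2 and 14.0 FPKM against 33.7, 21.2, 22.6 and 23.2 FPKM, a difference of 0.45 (SE 0.20, limma adjusted p = 0.915) with shCrebbp 1 far above the others. Mrpl50 was the gene with the smallest p among those lower in shCrebbp, at 5.69, 8.74, 4.82 and 6.67 FPKM against 3.48, 4.23, 5.24 and 3.58 FPKM. Only scramble 3 and shCrebbp 3 crossed, and the difference was -0.53 (SE 0.21, limma adjusted p = 0.915, exact permutation p = 0.0571).

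**Figure D4:**
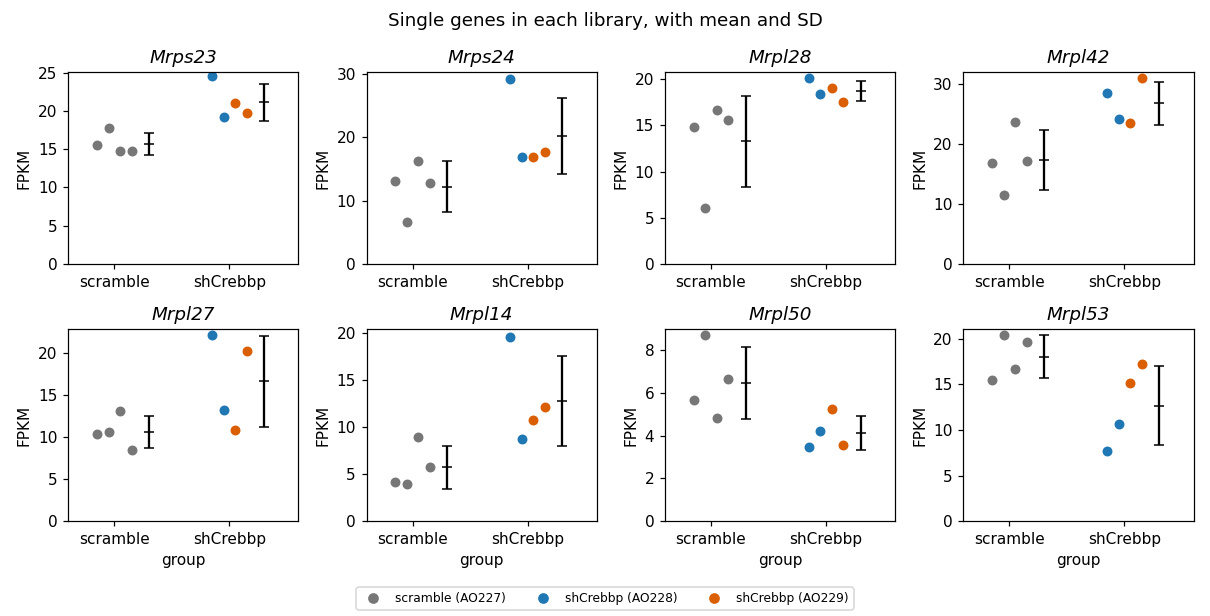
FPKM in each library for 8 genes, with group mean and SD (n = 4), and points coloured by name prefix. Values of Mrps23, Mrps24 and Mrpl28 do not overlap between groups, whereas Mrpl53 is lowest in the AO228 libraries, at 7.63 and 10.6 FPKM.

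The remaining large subunit genes named by level or spread did not separate the groups. Mrpl54, the most abundant of all 77, was at 59.2, 77.8, 74.2 and 53.9 FPKM in scramble and 113, 57.9, 59.5 and 55.8 FPKM in shCrebbp libraries, a difference of 0.06 (SE 0.24). Mrpl23, whose bacterial relative lies at the exit of the peptide tunnel, was at 44.9, 82.8, 62.0 and 60.9 FPKM against 78.5, 53.3, 56.0 and 79.0 FPKM, a difference of 0.10 (SE 0.21). In both genes the range of 1 group covered most of the other. Mrpl30 was at 37.5, 31.99, 75.9 and 45.7 FPKM against 88.9, 47.7, 72.8 and 77.5 FPKM, a difference of 0.62 (SE 0.28). Mrpl24 was at 23.9, 6.89, 28.0 and 30.6 FPKM against 33.5, 26.3, 33.3 and 42.7 FPKM, a difference of 0.74 (SE 0.41) that was 0.28 without scramble 2. Mrpl12, whose product also binds the mitochondrial RNA polymerase, was at 8.66, 5.63, 5.01 and 15.3 FPKM against 12.8, 7.89, 6.29 and 5.11 FPKM. The Mrpl12 groups overlapped throughout, with a difference of -0.05 (SE 0.36).

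Levels within the set, per length in FPKM, spanned 20.5-fold between the highest and the lowest mean. Levels of merged loci are not of 1 gene, so an order of levels is approximate. Values in shCrebbp 1 also varied with transcript length over all loci, as given above, and the reason was not tested. The median of the gene means was 15.2 FPKM, against 9.24 FPKM over all loci tested. Means were under 10 FPKM in 22 genes and at least 40 FPKM in 8 (Mrpl23, Mrpl30, Mrpl52, Mrpl54, Mrps16, Mrps18c, Mrps21 and Mrps28). The genes lie on many chromosomes, with 10 on chromosome 11, 8 on chromosome 17 and 7 on chromosome 6. In 8 of the 77 genes the locus is merged with another gene, as given above for Mrps6, Mrps18b, Mrps23, Mrps28 and Mrpl38, and also for Mrpl2 (with Cul7), Mrpl53 (with Ccdc142) and Mrps34 (with Nme3).

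The name prefixes split the shCrebbp libraries into pairs, which were fitted beside the scramble libraries as 3 coefficients. Both pairs are set against the same 4 scramble libraries, so their values are given side by side. For AO228, 42 of 48 Mrpl and 18 of 29 Mrps genes were above scramble, with medians of 0.29 and 0.15, and 51.4% of all loci tested were above 0. For AO229, 24 of 48 and 16 of 29 were above scramble, with medians of -0.00 and 0.03, and 52.4% of all loci tested were above 0. limma called 0 of the 77 genes in either pair, where it called 0% of all loci tested for AO228 and 0.0175% for AO229. At an unadjusted p under 0.05, AO228 had 9 genes higher and 2 lower (background 4.98% and 6.28%), and AO229 had 2 higher and 1 lower (background 4.03% and 5.84%).

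AO229 was then compared with AO228 directly. limma called 0 of the 77 genes, while it called 1.28% of all loci tested (146 loci, of which those higher in AO229 were 0.666% of all). The median difference, AO229 minus AO228, was -0.19 for Mrpl and -0.14 for Mrps genes, and 14 of 48 and 10 of 29 were above 0, against 50.4% of all loci tested. At an unadjusted p under 0.05, 8 genes were lower in AO229 (10.4%, against 8.64%) and 1, Mrpl53, was higher (1.3%, against 7.75%). The 8 lower genes were Mrpl1, Mrpl18, Mrpl33, Mrpl40, Mrpl49, Mrpl57, Mrps11 and Mrps18c. In Mrps11, for example, shCrebbp 1 and 2 stood at 19.6 and 11.5 FPKM and shCrebbp 3 and 4 at 9.01 and 6.78 FPKM, a difference of -0.87 (95% interval -1.52 to -0.21, limma adjusted p = 0.176).

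The merged locus of Mrpl53 with Ccdc142 (chr6:83101483-83111489) went the opposite way. It was at 15.4, 20.4, 16.6 and 19.7 FPKM in scramble, at 7.63 and 10.6 FPKM in the AO228 libraries, and at 15.2 and 17.3 FPKM in the AO229 libraries. Both AO228 values lay below every other library, while the AO229 values lay within and just under the scramble range. The difference of AO229 minus AO228 was 0.78 (95% interval 0.27 to 1.29, limma adjusted p = 0.126), the smallest adjusted p in the set for any of these contrasts. Against scramble, shCrebbp as a whole differed by -0.53 (SE 0.24, limma adjusted p = 0.915), and by -0.33 without shCrebbp 1.

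Other genes of mitochondrial translation were described from fixed lists, and limma called 0 genes in each of them. Of 7 genes listed as mitochondrial ribosomal proteins under other symbols, 5 were higher and 2 lower. Their median difference was 0.30, and 52% of all loci tested were above 0. At an unadjusted p under 0.05, 1 gene was higher and 0 were lower (background 2.08% and 2.93%), and 1 had shCrebbp values wholly above scramble (background 1.58%). Both counts are of Oxa1l, which encodes the insertase that receives new peptides at the inner membrane and is not itself a ribosomal protein. It was at 14.5, 8.49, 15.3 and 14.98 FPKM in scramble and 18.2, 17.0, 19.5 and 17.4 FPKM in shCrebbp libraries, without overlap, a difference of 0.44 (SE 0.19, limma adjusted p = 0.915, exact permutation p = 0.0286) that was 0.25 without scramble 2. Dap3, which encodes a GTP-binding protein of the small subunit, was at 7.51 ± 0.537 and 8.94 ± 1.48 FPKM (scramble and shCrebbp, SD, n = 4 each), a difference of 0.22, or 0.13 without shCrebbp 1. Chchd1 and Aurkaip1, small subunit proteins, differed by 0.33 and 0.31, and Chchd1 by 0.16 without shCrebbp 1. Ptcd3, a pentatricopeptide repeat protein, differed by -0.39, or -0.25 without shCrebbp 2.

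Of 18 translation factors tested, 12 were higher and 6 lower (median 0.17), and none had an unadjusted p under 0.05 by limma. Taco1, an activator of translation of the cytochrome c oxidase subunit 1, was at 2.09, 2.42, 1.96 and 1.98 FPKM in scramble and 3.11, 2.80, 3.05 and 3.27 FPKM in shCrebbp libraries. Its groups did not overlap and were tight, with a difference of 0.39 (SE 0.19, limma adjusted p = 0.915). The elongation factors Tufm and Gfm1 differed by -0.17 (SE 0.27) and -0.28 (SE 0.20), and both were lowest in shCrebbp 1, at 7.89 and 6.64 FPKM. Without that library they differed by 0.12 and -0.14, and Gfm1 by -0.16 without scramble 2. Of the 18 factors, shCrebbp 1 was the highest of the 8 libraries in 5, among them Tsfm (12.02 FPKM) and Guf1 (6.40 FPKM), and the lowest in 3. Mss51 and the release factor gene Mtrf1l differed by 0.58 (SE 0.34) and 0.34 (SE 0.24). Mtrf1l differed by 0.21 without scramble 2. The median deviation of the whole list in shCrebbp 1 was 0.21.

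Of 31 genes for assembly of the ribosome and modification of its RNA, 17 were higher and 14 lower (median 0.02). Noa1, a GTPase known for a role in mitochondrial translation, was at 2.62, 1.75, 3.90 and 2.71 FPKM in scramble and 7.93, 4.11, 3.90 and 4.59 FPKM in shCrebbp libraries, a difference of 0.70 (SE 0.26, limma adjusted p = 0.915, exact permutation p = 0.0571). It was the 1 gene of that list with an unadjusted p under 0.05 (background 2.08% higher and 2.93% lower). Gtpbp6 and the pseudouridine synthase gene Trub2 differed by -0.36 (SE 0.19) and 0.33 (SE 0.18). Of 19 genes for mitochondrial biogenesis and transcription of mitochondrial DNA, 7 were higher and 12 lower (median -0.10), with none at an unadjusted p under 0.05 by limma.

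The factors named for the promoter motifs had small differences. Nrf1 was at 21.0 ± 0.937 and 21.6 ± 0.875 FPKM, Gabpa at 9.43 ± 2.05 and 9.95 ± 0.934 FPKM and Yy1 at 25.6 ± 5.52 and 21.6 ± 1.65 FPKM (scramble and shCrebbp, SD, n = 4 each). Their differences were 0.03 (SE 0.11), 0.09 (SE 0.18) and -0.22 (SE 0.16), and without scramble 2 those of Gabpa and Yy1 were -0.057 and -0.086. Tfam, which packages mitochondrial DNA, differed by 0.17 (SE 0.18), or by 0.048 without scramble 3 and 0.27 without scramble 4. The protease gene Lonp1 differed by -0.25 (SE 0.14) and Tfb2m, a transcription factor of the organelle, by -0.32 (SE 0.21). Myc differed by -0.10 (SE 0.68), and was at 30.55, 16.8, 57.9 and 58.2 FPKM in scramble 1 to 4. Its values were 12.2 and 15.9 FPKM in the AO228 libraries and 67.8 and 97.1 FPKM in the AO229 libraries. Genes of the set with the ETS letters were higher in shCrebbp in 13 of 24 cases (median 0.03) and those without in 33 of 44 (median 0.15). For the NRF1 letters the numbers were 7 of 8 (median 0.12) and 39 of 60 (median 0.12), and for the YY1 letters 6 of 8 (median 0.18) and 40 of 60 (median 0.12). These motif splits are a description with no test, and they do not share a direction. The 15 listed transcripts encoded by mitochondrial DNA had no locus under the symbols searched, so their levels could not be read.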

How the data were processed

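Total RNA was extracted with Trizol and libraries were made with a stranded ribo-depletion kit, per the labels. CASAVA 1.8, TopHat2, Cufflinks and the build mm10 are named in the submitters' processing notes, without roles or parameters. The authors deposited 1 table of loci by library, in FPKM. Its header names no unit, which was read from the values and the locus identifiers. Of 13 sample columns, 8 matched the samples by name and 5 were not used. Replicates were numbered in the order listed.

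Values were taken as log2(FPKM + 1), which understates differences of low genes. The 11417 loci whose mean reached 1 FPKM were fitted with limma 3.58.1 in R 4.3.3 (moderated two-sided tests, prior following the mean), and p-values were adjusted over all of them by Benjamini-Hochberg (threshold 0.05). Prefixes were fitted as 3 coefficients. They are nested in the groups and cannot be told apart from the group as a covariate. Single genes also had an exact two-sided permutation test over 70 divisions, whose smallest p is 0.0286. The fit was tested on 10 simulated sets with 200 changed loci each, on the log2(FPKM + 1) scale. It called 36.1% of the 2-fold and 77.7% of the 4-fold changes, with 6.8 false calls on average. Most 2-fold changes were thus missed in the simulation. Transcript lengths came from the GENCODE M21 annotation, and promoters from RefSeq (GRCm38.p6).

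Members and lists were chosen with earlier results of these data known. Named genes were those of smallest p, highest level or widest spread in each subunit, those whose groups did not overlap, the Mrps18 paralogs and Mrpl12. From the other lists, the genes of smallest p in these same data were named, along with Tufm, Gfm1, Dap3, Tfam, Nrf1, Gabpa and Myc. Mrps11, Mrps30, Mrps36, Tsfm, Guf1 and the markers named were chosen after their values were seen. Alternatives were other pseudocounts, filters, scalings, priors and weights, summed or single-gene loci, each prefix alone and each library left out. Removal of the length trend was added after the data were seen.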

Additional observations from a re-analysis of the deposited data

Results flagged for a closer look

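In groups of 4 libraries, 1 library stood apart from the other 3 by Dixon's criterion in 8 of 52 groups examined. Chance gives about 1 in 20 for groups that are independent and not selected. Most of these groups are of genes named for small p, wide spread or lack of overlap, and all share the same 8 libraries, so the number is no measure of excess. The library shCrebbp 1 was the one apart in 6 of these. It was highest for the summed Mrpl level (1235 FPKM, next 921 FPKM), the summed Mrps level (656 FPKM, next 538.5 FPKM), Mrpl54 (112.6 FPKM, next 59.5 FPKM), Mrps24 (29.2 FPKM, next 17.6 FPKM) and Mrpl48 (33.7 FPKM, next 23.2 FPKM). It was lowest for Mrps18b, at 16.2 FPKM with the next at 22.9 FPKM. Scramble 2 was apart, and lowest, for Mrpl28 (6.03 FPKM, next 14.8 FPKM) and Mrps18b (13.2 FPKM, next 25.8 FPKM).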

How the results depend on the processing

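No paired analysis was possible because nothing in the labels ties a scramble to an shCrebbp library. No setting called a member. With the AO228 libraries alone 1 locus was called, 12 genes (15.6%) lay wholly above and 4 (5.19%) wholly below scramble, against 9.71% and 9.38% of all loci, and Mrpl12 turned to 0.31. With AO229 alone 3 loci were called, the Mrpl median was -0.00079, 9 genes lay above (11.7%) and 5 below (6.49%), against 11.2% and 11.3% of all loci, and Mrpl54, Mrps18b and Mrps18c turned to -0.18, 0.043 and -0.36. Library weights turned Mrpl54 and Mrps18c to -0.048 and -0.052. Without scramble 2 and shCrebbp 3 together, 10 genes lay above (13%) and 3 below (3.9%), against 5.25% and 5.15% of all loci, and Mrps12 was -0.14. With the length trend removed, 5 lay above (6.49%, against 1.55%), Mrpl54 was -0.041 and Mrps18c -0.0021. Fewer libraries make a wholly separate group easier to reach. Leaving out each library in turn gave 28 to 41 Mrpl and 14 to 19 Mrps genes higher, medians of 0.07 to 0.16 and -0.0099 to 0.14, 3 to 12 genes above and 0 to 3 below (all loci 2.66 to 3.68% and 2.68 to 3.4%; the most, 12 and 3, without scramble 3), and 0 to 2 loci called. Single genes ranged from -0.28 to 0.24 (Mrpl12), -0.049 to 0.24 (Mrpl23), -0.18 to 0.15 (Mrpl54), -0.089 to 0.74 (Mrps12), -0.31 to 0.048 (Mrps18b) and -0.19 to 0.29 (Mrps18c). The cause was not tested. FPKM gives no counts, so precision rests on the spread of 4 libraries a group.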
